A study of Mus musculus with 10 samples.

Results

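The genes described are 10 of the 55487 genes in the RNA-seq tables: the ligand gene Nodal, the antagonist genes Lefty1 and Lefty2, the co-receptor gene Tdgf1, the receptor genes Acvr1b, Acvr2a and Acvr2b, and the Smad genes Smad2, Smad3 and Smad7. They were chosen by name, as known genes of the Nodal and activin pathway, and each matched 1 Ensembl gene. All 10 had estimated counts in every library and passed the filter on low counts. The samples were 3 RNA-seq replicates of E14, a mouse embryonic stem cell line, without any genetic or chemical perturbation beyond the culture medium. The cells grew in medium with 15% fetal bovine serum, LIF, 3 µM of a GSK inhibitor and 1 µM of an inhibitor of MEK1/2, so every value below is from cells under both inhibitors. The R-loop maps that make up the other 7 samples of the series were not analysed here, and no difference between conditions was tested. The labels do not say whether the replicates came from separate cultures, so the spread between them may be technical.

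Nodal is a secreted ligand of the TGF-beta family. With its co-receptor Cripto, the product of Tdgf1, it binds a complex of type II receptors (from Acvr2a and Acvr2b) and the type I receptor ALK4 (from Acvr1b), which phosphorylates Smad2 and Smad3. These join Smad4, enter the nucleus and act with partners such as Foxh1, while Lefty proteins block the ligand outside the cell and Smad7 blocks the receptors inside it. Lefty1, Lefty2 and Smad7 are known targets of the pathway as well as its inhibitors. In the mouse embryo the pathway maintains the epiblast, induces mesoderm and endoderm and sets the left-right axis.

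Replicate 1 was the deepest, with 11420425 estimated counts, against 6467405 in replicate 2 and 5787357 in replicate 3. A mean TPM (a level scaled by gene length, with the same total in every library) of at least 1 was taken as expressed. Genes of effective length under 100 nt took 60.3%, 65.8% and 64.0% of all TPM in replicates 1, 2 and 3, which lowers the TPM of every longer gene. Among expressed genes, the median log2 difference in TPM from the mean of the other 2 libraries was 0.46, -0.0069 and -0.43 in the same order. The 5 stem cell markers summed to between 421 and 559 TPM, with each at a mean of at least 32.9 TPM. Of 6 fibroblast markers, Col3a1, Lum and Dcn had 0 counts in every library, and Thy1 alone reached 1 TPM, at 2.50 ± 1.15 (SD, n = 3). The summed level of all 6 was 1.24 to 3.37 TPM. None of 6 primitive endoderm markers reached 1 TPM, and their sum was 0.51 to 1.16 TPM. Of 4 primed epiblast markers, Dnmt3b and Otx2 exceeded 1 TPM, Fgf5 had 0 counts in every library, and the sum was 4.11 to 6.63 TPM. In bulk RNA, fewer cells that express a gene and less RNA per cell cannot be told apart.

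All 10 genes were expressed, with mean TPM from 1.54 to 331. By the same limit 19.8% of all 55487 genes and 44.1% of the 21974 protein-coding genes were expressed. The median of the 10 means was 7.07 TPM. The genes lay between percentile 60.0 (Acvr2a) and percentile 99.7 (Tdgf1) of protein-coding genes ranked by mean TPM.

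**Figure D1:**
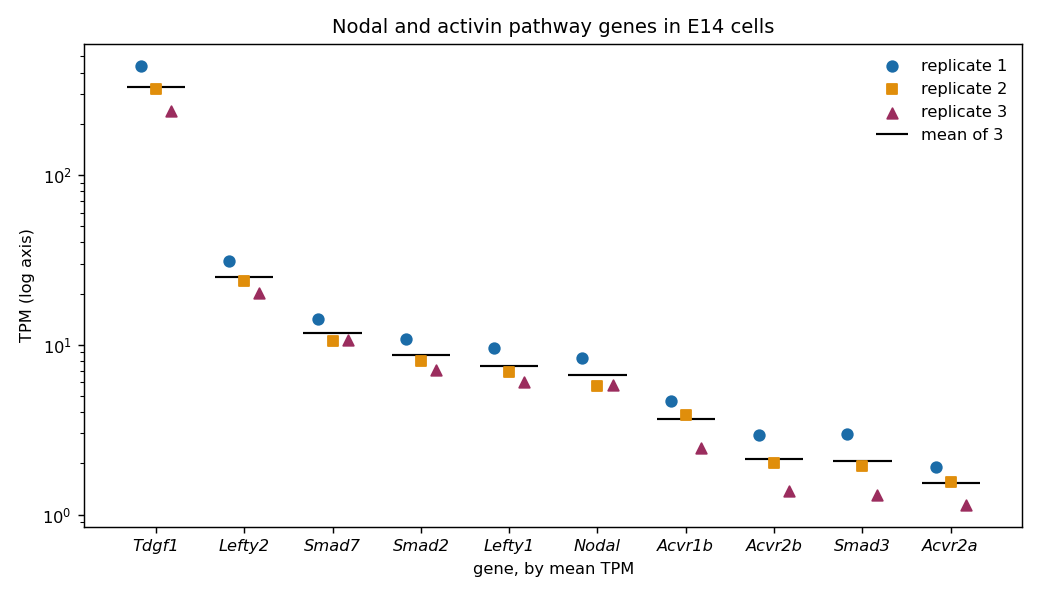
TPM (log axis) of the 10 genes, ordered by their mean, with 1 point for each of 3 RNA-seq replicates and a bar at the mean. Tdgf1 stood at 237 to 438 TPM, above the 20.2 to 31.0 TPM of Lefty2, and the remaining 8 genes lay between 1.14 and 14.1 TPM.

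The ligand gene Nodal (ENSMUSG00000037171, chromosome 10, 61417972 to 61425338, plus strand) had 8.35, 5.68 and 5.80 TPM in replicates 1, 2 and 3, or 6.61 ± 1.51 (SD, n = 3). Replicate 1 was high and the others nearly equal. These levels came from 443, 210 and 216 estimated counts. Scaled to the library total without length (CPM), Nodal had 38.8, 32.5 and 37.3, so replicate 2 was the lowest and replicates 1 and 3 were close.

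Of the antagonist genes, Lefty2 was above Nodal in every library, while Lefty1 and Nodal overlapped in range. Lefty2 (ENSMUSG00000066652, chromosome 1, 180893108 to 180899103) had 30.96, 23.74 and 20.20 TPM in replicates 1, 2 and 3, from 1953, 1010 and 889 counts. Lefty1 (ENSMUSG00000038793, chromosome 1, 180935022 to 180938400) had 9.60, 6.94 and 6.06 TPM, from 386, 194 and 171 counts. Lefty1 was above Nodal in TPM in 3 of 3 libraries and below it in CPM in 3 of 3, at 33.8, 30.0 and 29.5 CPM. The ranges of Lefty1 and Lefty2 did not overlap, and Lefty2 was the higher in all 3 libraries. The ratio of Lefty2 to Lefty1 TPM was 3.23, 3.42 and 3.33 in the same order, and the log2 difference of Lefty1 from Lefty2 was -1.72 ± 0.040 (SD, n = 3). Without length scaling this difference was -2.36 ± 0.023 (SD, n = 3) in CPM, since the Lefty2 transcript is longer. Summed, the antagonist genes had 40.6, 30.7 and 26.3 TPM, and the sum was 4.86, 5.40 and 4.53 times the level of Nodal in replicates 1, 2 and 3. The log2 difference of Nodal from the sum was -2.28 ± 0.13 (SD, n = 3).

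Lefty1 and Lefty2 lie on the plus strand of chromosome 1, with 35918 bp between the end of Lefty2 and the start of Lefty1. Their coding sequences of 1104 nt each were identical at 1014 positions, or 91.8%. Of the 50-nt words of the Lefty1 transcript, 17.9% also occur in that of Lefty2. A single 50-nt read of such a word would carry no mark of its gene, but the read length is not known here. The estimated counts were 386.07, 194.05 and 171 for Lefty1 and 1952.93, 1009.95 and 889 for Lefty2. These sums do not show how many reads were divided between the genes. Each gene has a spliced protein-coding transcript and a shorter one with a retained intron. The weighted length in the tables assigned 100% of Lefty1 molecules in every library, and 99.6%, 95.8% and 99.0% of Lefty2 molecules, to the protein-coding transcript.

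The co-receptor gene Tdgf1 (ENSMUSG00000032494, chromosome 9, 110939603 to 110946158, minus strand) had the highest level of the 10 genes. It had 438, 318 and 237 TPM in replicates 1, 2 and 3, or 331 ± 101 (SD, n = 3), and 1100, 1089 and 912 CPM. Replicate 3 was lowest on both scales, while replicates 1 and 2 were almost level in CPM. Tdgf1 exceeded Nodal by 52.4, 56.0 and 40.9 times in TPM, a log2 difference of 5.60 ± 0.24 (SD, n = 3). The difference was 4.83 ± 0.23 (SD, n = 3) in CPM. With the longest transcript as the length in every library, a choice made after seeing the data, it was 4.94 ± 0.23 (SD, n = 3). The last value is lower because the weighted length of Tdgf1 was 1196, 1312 and 1306 nt, against 1932 nt for its longest transcript.

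Part of this level is uncertain, because Tdgf1 has a processed pseudogene, Tdgf1-ps1 (chromosome 16, 3730510 to 3731022), which matches its coding sequence at 506 of 513 positions, or 98.6%. The tables gave Tdgf1-ps1 929, 718 and 566 counts and 91.1, 103 and 78.4 TPM in replicates 1, 2 and 3. Its share of the counts of both genes was 6.88%, 9.25% and 9.68%, and its TPM was highest in replicate 2, where that of Tdgf1 was highest in replicate 1. Of the 50-nt words in Tdgf1-ps1, 50.9% occur unchanged in a Tdgf1 transcript. In the other direction, 12.5% of the 1883 words of the longest Tdgf1 transcript occur in Tdgf1-ps1. Read length is not given in the sources used here. With the pseudogene's TPM added to Tdgf1, an alternative chosen after seeing the data, the log2 difference from Nodal was 5.97 ± 0.22 (SD, n = 3). A further 2 pseudogene copies, Tdgf1-ps2 and Gm13455, had 0 counts in every library. The 90 coding bases with the most mismatches, in exon 6 of 6 of Tdgf1, show how little separates the sequences. In GRCm38 they are chr9:110940707-110940796 (minus strand) in Tdgf1 and chr16:3730933-3731022 (plus strand) in the pseudogene, and capitals mark the 4 bases that differ.
Tdgf1: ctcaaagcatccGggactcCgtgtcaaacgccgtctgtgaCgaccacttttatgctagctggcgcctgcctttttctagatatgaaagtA
Tdgf1-ps1: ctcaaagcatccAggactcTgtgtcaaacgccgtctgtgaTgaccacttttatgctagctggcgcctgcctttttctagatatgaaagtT

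In TPM, the receptor genes and Smad3 had the lowest levels of the 10 genes. Acvr1b (ENSMUSG00000000532, chromosome 15, 101174067 to 101213684, plus strand), for the type I receptor, had 4.63, 3.83 and 2.47 TPM in replicates 1, 2 and 3. In CPM it had 47.0, 48.1 and 34.7, so replicate 3 alone was low. The type II receptor gene Acvr2b (ENSMUSG00000061393, chromosome 9, 119402118 to 119434995, plus strand) had 2.95, 2.02 and 1.38 TPM, from 174, 101 and 76 counts, the smallest counts of the 10 genes. The other type II receptor gene, Acvr2a (ENSMUSG00000052155, chromosome 2, 48814109 to 48903269, plus strand), had 1.91, 1.56 and 1.14 TPM, from 287, 164 and 120 counts. Both type II genes followed the order of the libraries, highest in replicate 1 and lowest in replicate 3, and their ranges overlapped.

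Which type II receptor gene was higher depended on length. In TPM, Acvr2b was above Acvr2a in 3 of 3 libraries, with a log2 difference of Acvr2a from Acvr2b of -0.40 ± 0.18 (SD, n = 3). In CPM, Acvr2a was above Acvr2b in 3 of 3 libraries, by 0.69 ± 0.032 (SD, n = 3). The weighted length of Acvr2b, a mean over its 6 transcripts, was 2315, 2783 and 3043 nt in replicates 1, 2 and 3, while that of Acvr2a was 5686 nt in each. With the longest Acvr2b transcript, 3175 nt, used in every library, the log2 difference was -0.17 ± 0.027 (SD, n = 3). RefSeq places the end of Acvr2b 7153 bp beyond the end in GENCODE vM21, whose transcripts for all 10 genes are those in the tables. At its end Acvr2a shares 446 exonic bp with Orc4 on the opposite strand, a gene with 988, 491 and 370 counts. Whether the counting used strand is not given in the sources used here, and without it reads of that stretch cannot be told apart.

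The single type I gene and the type II genes together were at like levels. Acvr1b had 3.64 ± 1.09 TPM (SD, n = 3) and the sum of Acvr2a and Acvr2b 3.65 ± 1.17 TPM (SD, n = 3). Their log2 difference was -0.068, 0.095 and -0.028 in replicates 1, 2 and 3, and its sign varied between libraries. In CPM the difference was 0.16 ± 0.11 (SD, n = 3), with Acvr1b higher in 3 of 3 libraries.

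Among the genes for Smad proteins, Smad7 (ENSMUSG00000025880, chromosome 18, 75367529 to 75395935, plus strand), which encodes the inhibitory Smad, had 14.12, 10.45 and 10.59 TPM in replicates 1, 2 and 3. In CPM it had 96.4, 92.9 and 99.0. Its coefficient of variation was the smallest of the 10 genes on both scales, 17.7% in TPM and 3.17% in CPM. Smad2 (ENSMUSG00000024563, chromosome 18, 76241580 to 76310963, plus strand) had 10.74, 8.06 and 7.12 TPM, from 1103, 611 and 439 counts. Smad3 (ENSMUSG00000032402, chromosome 9, 63646767 to 63757994, minus strand) had 2.97, 1.94 and 1.30 TPM, from 320, 182 and 108 counts. Smad2 and Smad3, the receptor-regulated Smads, did not overlap in range.

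Smad2 exceeded Smad3 by 3.62, 4.15 and 5.48 times in TPM in replicates 1, 2 and 3, a log2 difference of 2.06 ± 0.28 (SD, n = 3). In CPM the difference was 1.85 ± 0.15 (SD, n = 3). The size of this difference rests on the lengths given to Smad2, whose 7 transcripts run from 614 to 8089 nt and whose weighted length was 3926, 4140 and 3380 nt. With the longest transcript of each gene as its length, the difference was 1.12 ± 0.13 (SD, n = 3), with Smad2 higher in 3 of 3 libraries. The coding sequences of Smad2 and Smad3 were 77.1% identical and those of Acvr2a and Acvr2b 66.7%, and no 50-nt word of Smad2 occurred in Smad3 or of Acvr2a in Acvr2b.

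**Figure D2:**
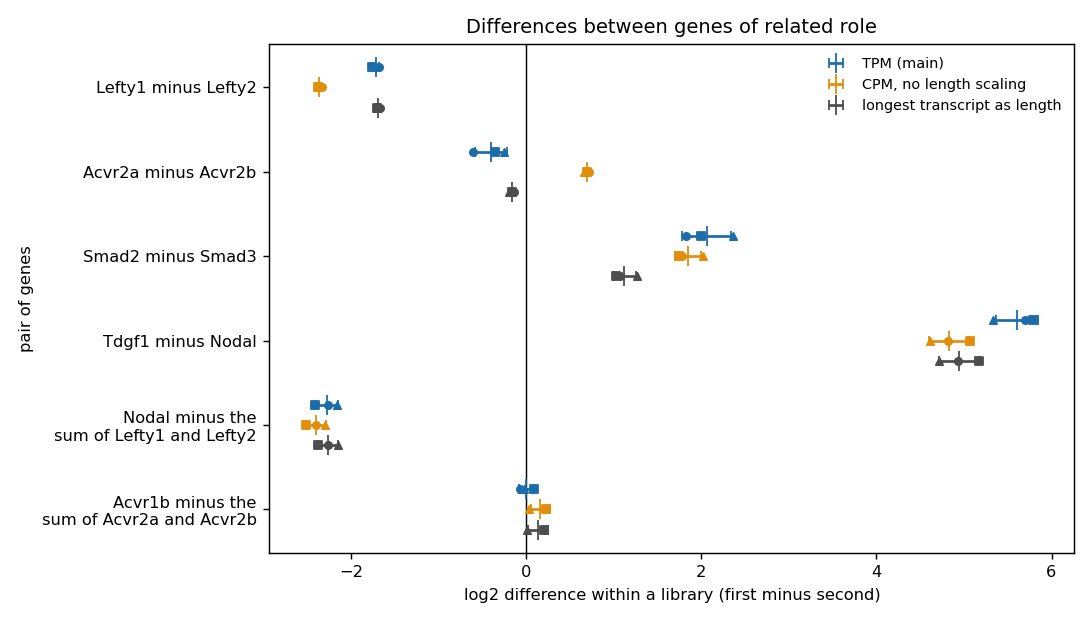
Log2 differences within a library for 6 pairs of genes or sums, in TPM (blue), CPM (orange) and with the longest transcript as the length (grey). Circles, squares and triangles are replicates 1, 2 and 3, and the bars are the mean and SD. Acvr2a minus Acvr2b lies below 0 in TPM (-0.40) and above 0 in CPM (0.69), and Smad2 minus Smad3 falls from 2.06 to 1.12 with the longest transcript.

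Ordered by mean TPM, the genes ran Tdgf1, Lefty2, Smad7, Smad2, Lefty1, Nodal, Acvr1b, Acvr2b, Smad3 and Acvr2a, with a 215-fold difference between the highest and lowest. Of 9 neighbouring pairs in that order, 3 did not overlap over the libraries, namely Tdgf1 above Lefty2, Lefty2 above Smad7 and Nodal above Acvr1b. The last pair overlapped in CPM, where Acvr1b had 43.3 ± 7.42 and Nodal 36.2 ± 3.31 (SD, n = 3). Acvr1b was the higher in replicates 1 and 2 (47.0 and 48.1 against 38.8 and 32.5 CPM), and Nodal in replicate 3 (37.3 against 34.7 CPM). The other 6 pairs, from Smad7 down to Nodal and from Acvr1b down to Acvr2a, overlapped in range. These ranges include the shift in TPM between libraries given above. Without replicate 1 the number of pairs that did not overlap was 7, and without replicate 3 it was 5. Within a library the order in TPM was steadier: 44 of the 45 possible pairs had the same order in all 3 libraries, and the exception was Acvr2b with Smad3. That order rests on the weighted lengths. With the longest transcript as the length, Smad2 had 5.12, 4.05 and 2.91 TPM in replicates 1, 2 and 3. It then lay below Nodal (8.35, 5.68 and 5.80) and Lefty1 (9.60, 6.94 and 6.06) in every library. No p-value is given for these differences, since an exact sign-flip permutation test on 3 libraries cannot go below 0.25.

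The replicates were then compared gene by gene. All 10 genes had their highest TPM in replicate 1, as did 81.9% of the 11000 expressed genes. In CPM, 5 of the 10 were highest in replicate 1, against 44.4% of expressed genes, and 8 of the 10 were lowest in replicate 3, against 57.8%. The exceptions were Nodal and Smad7, which were lowest in replicate 2. Smad3 was the farthest below its mean in replicate 3, by -0.39 in log2 CPM, followed by Acvr1b at -0.30 and Smad2 at -0.22. These genes have weighted lengths of 3815 to 4566 nt on average. Acvr2a, the longest at 5686 nt, was at -0.19, and Tdgf1, the shortest at 1271 nt, at -0.18.

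**Figure D3:**
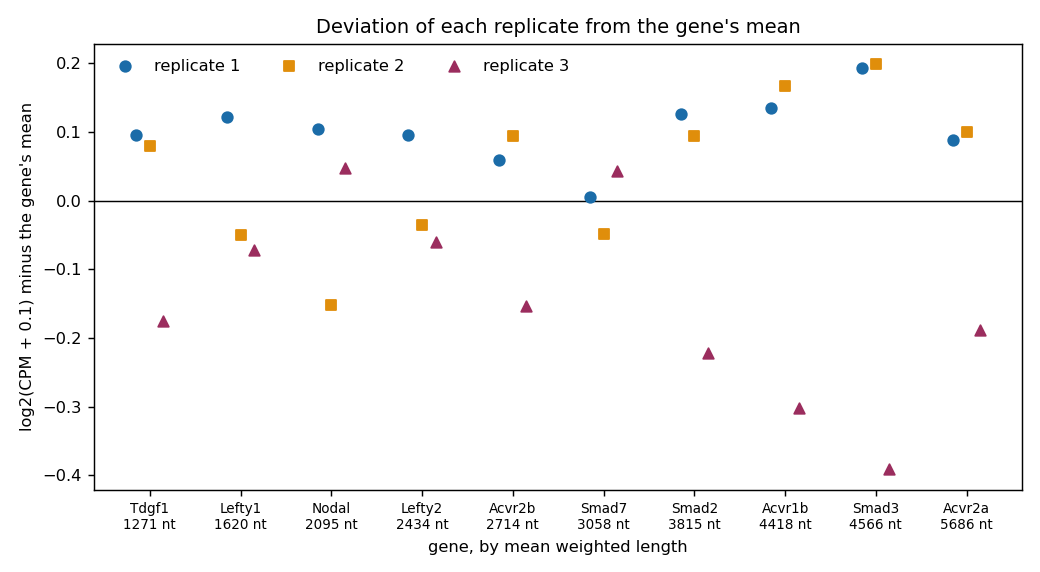
How far each replicate lay from the mean of a gene's 3 values of log2(CPM + 0.1), for the 10 genes ordered by mean weighted length in nt. Replicate 3 lies below 0 for 8 genes, farthest for Smad3 at -0.39, and slightly above 0 for Nodal at 0.048 and Smad7 at 0.043.

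Variability between libraries was tested against the trend of genes at like abundance, with edgeR's goodness of fit and p adjusted by Benjamini-Hochberg over 12577 genes. None of the 10 genes was called at an adjusted p under 0.05 by edgeR, nor with DESeq2 size factors, against 1.84% of genes tested. At an unadjusted p under 0.05 the count was also 0 of 10, against 6.96% of genes tested. The smallest unadjusted p was that of Smad3, 0.427 by edgeR, and the next was that of Nodal, 0.557. With a smooth correction for gene length in each library, the unadjusted p by edgeR was 0.750 for Smad3, 0.907 for Acvr1b, 0.996 for Smad2 and 0.452 for Nodal. It was smallest for Smad7, at 0.346, with 0 of the 10 genes called, and 179 genes were called in all, of which 141 were among the 232 called without the correction. A p that misses the threshold does not show that a gene did not vary.

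The rest of the pathway was described with a list of 41 further genes. Of these, 19 reached a mean TPM of 1, or 46.3%, against 44.1% of protein-coding genes. They divided by role. All 7 Smad partners and nuclear repressors were expressed, as were all 6 genes for Smad anchoring and turnover and the common Smad gene Smad4, at 8.47 ± 2.34 TPM (SD, n = 3). At a limit of 5 TPM, all 7 partners and repressors and Smad4 remained. Of the 6 genes for anchoring and turnover, 2 remained, Smurf2 and Ppm1a, against 24.1% of protein-coding genes. Among the secreted antagonists on this list, 0 of 5 were expressed, and among genes known as targets in the embryo 0 of 6. The zeros for antagonists and targets depended on the denominator of TPM. With genes of effective length under 100 nt left out of it, Fst had 1.86, Dand5 1.06 and Eomes 2.62 TPM on average. By that measure 2 of 5 antagonists and 1 of 6 targets passed, against 51.5% of protein-coding genes. By a mean CPM of at least 1, Fst, Dand5 and Inha passed among the antagonists and Eomes among the targets, against 55.2% of protein-coding genes.

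Of the other ligand genes, Gdf3, for a ligand that also uses Cripto, had 24.3, 18.0 and 15.5 TPM in replicates 1, 2 and 3. It was above Nodal in every library. The activin subunit gene Inhbb had 0.80 ± 0.10 TPM (SD, n = 3), below the limit of 1, from 99, 65 and 54 counts. That too depended on the denominator of TPM. With genes of effective length under 100 nt left out of it, Inhbb had 2.20 TPM on average, and its mean CPM was 9.35. Inhba, for another activin subunit, had 0 counts in every library, under the floor of 3 counts. Gdf1, which can pair with Nodal, had 8.07 estimated counts in replicate 1 and 0 in the others. Tgfb1 reached 1.71 ± 0.96 TPM (SD, n = 3), from 64, 48 and 12 counts.

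RNA levels differed widely among the genes for convertases, co-receptors and receptors. The convertase gene Pcsk6, whose product cleaves the Nodal precursor, had 9.86 ± 2.51 TPM (SD, n = 3) and Furin 1.90 ± 0.85 TPM (SD, n = 3). Pcsk5 had 0, 0 and 4 counts. Tdgf1's relative Cfc1, which encodes the co-receptor Cryptic, had 0, 1 and 0 counts. Acvr1c, for the alternative type I receptor ALK7, had 0 counts in every library, so of the type I genes for Nodal only Acvr1b was detected. The TGF-beta receptor genes were unequal, with Tgfbr1 at 3.76 ± 1.10 and Tgfbr2 at 0.14 ± 0.050 TPM (SD, n = 3).

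Inside the cell, Foxh1, the DNA-binding partner of Smad2 and Smad3, had 6.61, 5.62 and 4.16 TPM in replicates 1, 2 and 3. Its inhibitor Drap1 had 15.0 ± 1.38 TPM (SD, n = 3). The repressor genes Tgif1, Skil and Ski had 25.3 ± 7.17, 11.01 ± 2.48 and 6.15 ± 3.12 TPM (SD, n = 3). Ppm1a, for a phosphatase that acts on Smad2 and Smad3, had 19.0 ± 3.66 TPM (SD, n = 3). Smurf2, for a ubiquitin ligase that binds Smad7, had 6.96 ± 1.71 TPM (SD, n = 3).

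Beyond Lefty1, Lefty2 and Smad7, the 6 listed targets known from the gastrulating embryo had a mean of at most 0.95 TPM. Eomes, for a T-box factor of mesoderm and endoderm, stood just under the limit at 0.95 ± 0.11 TPM (SD, n = 3). Gsc had 6, 8 and 3 counts, Mixl1 3, 4 and 0, and T 2, 2 and 0. The endoderm gene Foxa2 had 0 counts in every library, and Sox17 had 5, 2 and 1. At this depth a floor of 3 counts is 0.263, 0.464 and 0.518 CPM in replicates 1, 2 and 3, and genes under it cannot be ordered.

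**Figure D4:**
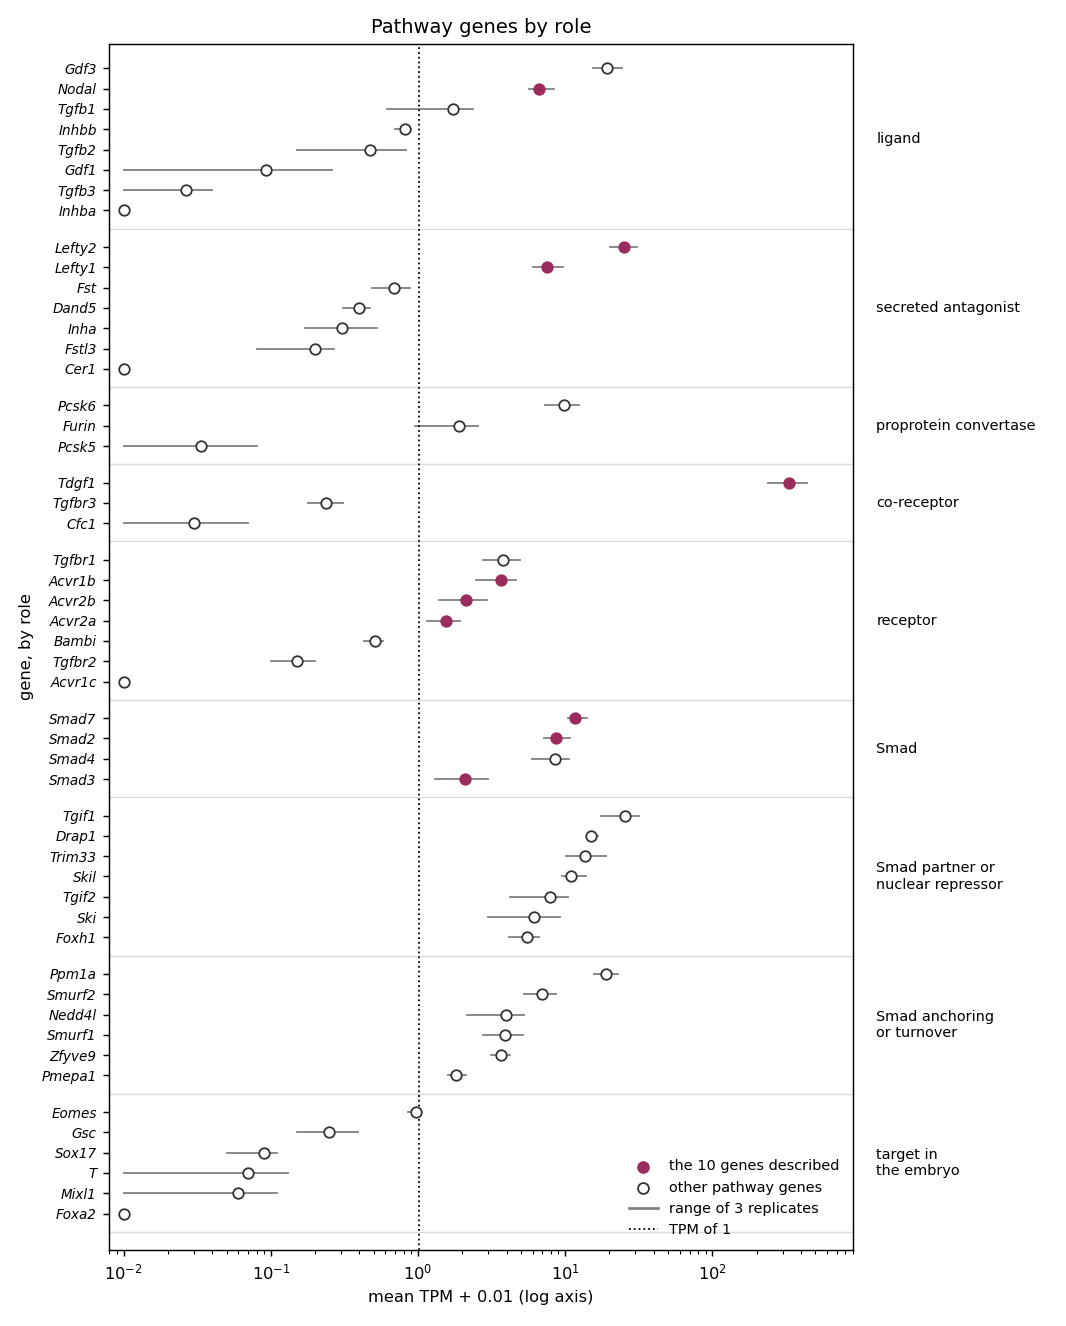
Mean TPM + 0.01 (log axis) of the 10 genes (filled) and 41 other pathway genes (open), grouped by role, with a line for the range of 3 replicates and a dotted line at 1 TPM. All Smad genes, Smad partners and genes for Smad turnover lie above 1 TPM. Of the 7 secreted antagonists shown, Lefty1 and Lefty2 alone do on this scale, and Fst and Dand5 pass it where short genes are left out of the denominator.

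Promoter sequence was described last, for genes that share a pathway but span a 215-fold range of level. A link between promoter sequence and level was not tested. RefSeq windows (GRCm38.p6) matched 6 of the 10 genes: Nodal, Tdgf1, Acvr1b, Acvr2a, Acvr2b and Smad3. Lefty1, Lefty2, Smad2 and Smad7 had no entry. The Acvr2b window, chr9:119401928-119402177, ends inside the gene, past the RefSeq start at 119401583 and the GENCODE start at 119402118. The start used for Acvr2b is therefore not the first base of the gene. In the 250 bases before the start, GC content was 42.0% for Tdgf1 and 53.2% for Nodal, against a median of 52.4% over 32851 windows. It was 69.2% for Smad3, 72.8% for Acvr2b, 78.8% for Acvr1b and 82.0% for Acvr2a, at percentile 89.6 or higher. The count of CG dinucleotides was 3 for Nodal and 7 for Tdgf1, and 22, 24, 42 and 49 for Smad3, Acvr2b, Acvr1b and Acvr2a, against a median of 6. Tdgf1, Nodal and Acvr2a are printed as the highest, a middle and the lowest gene by level. The windows are chr9:110946159-110946408 (minus strand), chr10:61417722-61417971 (plus strand) and chr2:48813859-48814108 (plus strand), and capitals mark a CAGAC or its reverse complement GTCTG.
Tdgf1: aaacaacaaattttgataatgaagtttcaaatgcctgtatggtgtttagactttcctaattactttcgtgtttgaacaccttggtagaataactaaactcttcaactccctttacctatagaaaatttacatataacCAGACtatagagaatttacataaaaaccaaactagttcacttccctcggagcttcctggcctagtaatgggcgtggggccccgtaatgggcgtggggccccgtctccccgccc
Nodal: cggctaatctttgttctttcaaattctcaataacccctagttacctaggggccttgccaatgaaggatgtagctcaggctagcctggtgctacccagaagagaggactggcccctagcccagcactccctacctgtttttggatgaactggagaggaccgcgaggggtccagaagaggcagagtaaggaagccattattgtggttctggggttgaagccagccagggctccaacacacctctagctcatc
Acvr2a: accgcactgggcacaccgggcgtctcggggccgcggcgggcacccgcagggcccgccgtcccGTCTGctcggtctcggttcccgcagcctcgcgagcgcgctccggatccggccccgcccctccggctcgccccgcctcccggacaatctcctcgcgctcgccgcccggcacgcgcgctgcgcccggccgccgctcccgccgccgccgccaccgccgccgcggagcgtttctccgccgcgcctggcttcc

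The letters CAGAC, part of the Smad binding element, were searched on both strands and occur in 42.2% of all windows. They began 113 bases before the start of Tdgf1, and GTCTG began 188 bases before Acvr2a. In Acvr2b, GTCTG began 233 bases before the start used for its window, which lies inside the gene. The longer palindrome GTCTAGAC (0.17% of windows), the Foxh1 motif TGTGGATT (0.72%) and the TATA box letters TATAAA (12.4%) were in none of the 6 windows, which says only that these letters are not there. No binding data were used here.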

How the data were processed

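Per the labels' protocols, the directional libraries were prepared from Trizol-extracted total RNA after DNase treatment and removal of rRNA. STAR, RSEM and the build mm10 are named in the submitters' processing notes; versions, annotation release and strand setting are not given in the sources used here. Per the file headers, the authors deposited an expected count (estimated count, not normalized) and TPM per gene, with FPKM, which was not used. Samples were grouped by title.

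Gene names and coordinates are from GENCODE vM21 (GRCm38, the assembly that mm10 names), which held 55227 of 55487 IDs. CPM is the estimated count over the library total. Differences are of log2(TPM + 0.1). Variability was tested with edgeR 4.0.16 (R 4.3.3) on counts rounded to whole numbers: filterByExpr, TMM, an intercept, trended dispersion, and the deviance of each gene against a chi-square, tested on simulated data. DESeq2 1.42.0 gave alternative size factors. Near copies were sought with BLAST+ 2.17.0 (at least 200 nt at 85% identity) and coding sequences aligned with Biopython 1.88. Other steps used Python 3.11.15. An item of the pathway list is not reported here. The genes named are the 10 members, the listed pathway genes, marker genes, and overlapping or copied genes. Members and lists were chosen with earlier results of these data known.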

Additional observations from a re-analysis of the deposited data

How the results depend on the processing

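Over 11 results, 76 alternative values were computed, 69 as planned and 7 chosen after seeing the data. Of these, 56 stayed within the allowed limits, 19 moved and 1 reversed. For counts the limit was a ratio to the main value, and a wide one. By it, 27 other pathway genes in CPM in place of 19 in TPM counted as unmoved. The reversal was Acvr2a against Acvr2b, -0.40 in TPM and 0.69 in CPM. With the longest transcript as the length this difference moved to -0.17, without a change of sign. In CPM the differences were -2.36 for Lefty1 from Lefty2, 4.83 for Tdgf1 from Nodal and 0.16 for Acvr1b from the type II sum (-0.00049 ± 0.085, SD, n = 3, in TPM), and 5 neighbouring pairs did not overlap. CPM leaves out length by construction. The longest transcript gave 1.12 for Smad2 from Smad3, 4.94 for Tdgf1 from Nodal and 0.14 for Acvr1b from the type II sum, and adding Tdgf1-ps1 gave 5.97 for Tdgf1 from Nodal. A pseudocount of 1 gave -1.61 for Lefty1 from Lefty2, 1.67 for Smad2 from Smad3 and -2.13 for Nodal from the Lefty sum, since it shrinks low levels. At a limit of 5 TPM, 6 of the 10 genes and 12 of the 41 others were expressed, against 24.1% of protein-coding genes. For the 41 the count was 23 at 0.5 TPM (49.3%), 25 where TPM omits genes under 100 nt (51.5%) and 27 by CPM (55.2%), with the share of protein-coding genes in brackets. Leaving out each replicate in turn gave 3 to 7 neighbouring pairs that did not overlap and, over all genes, 63 to 93 called as varying in place of 232, with fewer libraries to vary. Depth limits genes under 3 counts, and TPM depends on how reads were divided among transcripts.

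No paired analysis was possible because 1 group alone was analysed and no groups were compared. Differences between genes were taken within each library.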
